A study of Mus musculus with 15 samples.

Results

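Irx1, Irx2, Hhex, Pax4 and Neurog3 encode transcription factors of the pancreatic α-cell, the δ-cell and the endocrine progenitor, and their chromatin was described in islets of CBA mice on 3 diets. The 5 genes were taken by name for these roles and not by a measured value, out of 21938 protein-coding genes of chromosomes 1 to 19, X and Y. Earlier results of these data were known when they were chosen. Chromatin immunoprecipitation followed by sequencing (ChIP-seq) had been used to map acetylation (H3K27Ac) and trimethylation (H3K27Me3) of lysine 27 of histone H3. CBA males received a regular diet (RD), a high-fat diet (HFD) or HFD with the AMPK activator O304 at 0.8 mg per g (HFD-O304) from 10 weeks of age, and islets were isolated at 20 weeks, picked by hand and pooled. The labels list 12 ChIP samples, 2 for each mark and diet, and 3 inputs. The 2 replicates of each group were merged before peaks were called, so that each mark and diet had 1 peak list and no spread between replicates could be measured. No test between diets was possible, and the values of the diets are set side by side.

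At an active promoter or enhancer lysine 27 of histone H3 is acetylated. Polycomb repressive complex 2 trimethylates the same lysine at genes that a cell keeps silent, often at CpG-rich promoters of developmental regulators, and a given residue cannot carry both modifications. In the islet, Irx1 and Irx2, homeodomain factors of the Iroquois family, are characteristic of glucagon-producing α-cells. Hhex, a homeodomain factor, maintains the somatostatin-producing δ-cell. Neurog3, a basic helix-loop-helix factor, commits pancreatic progenitors to the endocrine fate, and Pax4, a paired homeodomain factor, acts downstream of it towards the β-cell and δ-cell lineages. Most cells of a mouse islet are β-cells, and the peaks describe the mixture. A mark carried by fewer cells and a mark that is weaker in each cell cannot be told apart in these data.

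The 5 genes are compact and lie on 4 chromosomes of the mouse genome, build GRCm38. Irx1 (ENSMUSG00000060969) lies at chr13:71957921-71963723 on the minus strand, and Irx2 (ENSMUSG00000001504) at chr13:72628820-72634198 on the plus strand, with 665 kb between their start sites. Hhex (ENSMUSG00000024986) lies at chr19:37434810-37440731 on the plus strand. Pax4 (ENSMUSG00000029706) lies at chr6:28442334-28449353 on the minus strand. Neurog3 (ENSMUSG00000044312) lies at chr10:62133090-62134763 on the plus strand, within the gene Fam241b on the other strand. Here the promoter of a gene is the stretch within 1 kb of the 5′ end of its GENCODE record, and its locus is the gene body with 20 kb on either side.

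The upstream sequences below show what lay under the H3K27Me3 peaks of Irx2 and Hhex and, for comparison, those of Neurog3, which are about as dense in CG as those of Irx2 and lay under no peak of either mark. Capitals mark every CG dinucleotide. The bases are those of the GRCm38 reference on the plus strand, which is the coding strand of all 3 genes, and the promoter table of RefSeq used for them held 3 of the 5 genes (Irx2, Hhex and Neurog3). The Irx2 stretch, chr13:72628570-72628819, has 19 CG dinucleotides in 250 bases and lay wholly inside the H3K27Me3 peak of each diet. The Hhex stretch, chr19:37434591-37434809, has 26 in 219 bases and also lay wholly inside the H3K27Me3 peak of each diet. The Neurog3 stretch, chr10:62132840-62133089, has 18 in 250 bases.
Irx2 upstream: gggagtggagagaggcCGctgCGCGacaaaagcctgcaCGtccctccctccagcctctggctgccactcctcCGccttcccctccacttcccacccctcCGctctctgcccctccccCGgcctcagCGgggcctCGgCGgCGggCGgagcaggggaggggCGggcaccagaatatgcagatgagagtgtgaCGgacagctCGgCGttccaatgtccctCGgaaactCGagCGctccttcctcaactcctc
Hhex upstream: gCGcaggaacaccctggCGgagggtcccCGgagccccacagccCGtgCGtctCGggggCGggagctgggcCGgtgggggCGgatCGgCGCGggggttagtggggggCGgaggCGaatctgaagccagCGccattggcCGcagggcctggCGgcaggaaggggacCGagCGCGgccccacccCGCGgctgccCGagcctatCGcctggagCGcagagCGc
Neurog3 upstream: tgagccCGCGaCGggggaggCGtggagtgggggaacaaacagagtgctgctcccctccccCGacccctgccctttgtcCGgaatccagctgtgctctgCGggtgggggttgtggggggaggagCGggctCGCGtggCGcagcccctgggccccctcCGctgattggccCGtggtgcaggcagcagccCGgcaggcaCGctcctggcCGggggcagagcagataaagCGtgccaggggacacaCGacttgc

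Common promoter motifs were counted in the same stretches. The 4 motifs below were searched on both strands of these upstream bases, and over 32851 RefSeq promoter entries for their frequency. The GC box GGGCGG, found in 32.7% of the entries, occurred 2 times at Irx2, 3 times at Hhex and 0 times at Neurog3. The CCAAT box (CCAAT, 33.8% of the entries) occurred 1 time at each of the 3 genes. The E-box CANNTG (66.2%) occurred 1 time at Irx2 and 1 time at Neurog3, and TATAAA (12.4%) at none of them. These are matches of letters in a window and not mapped binding sites.

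The 5 promoters fell into the same classes in every diet. H3K27Me3 was called at the promoters of Irx1, Irx2 and Hhex in RD, HFD and HFD-O304 islets, and at neither Pax4 nor Neurog3. H3K27Ac was called at none of the 5 promoters in any diet. With H3K27Me3 the count was thus 3 of 5 in each diet, beside 6.63% of all protein-coding genes in RD, 8.46% in HFD and 8.88% under HFD-O304. With H3K27Ac it was 0 of 5 in each diet, beside 44.1%, 49.9% and 49.4% of all genes (42.5% in all 3 diets and 52.6% in at least 1). A promoter with H3K27Me3 in all 3 diets and H3K27Ac in none was found at 3 of the 5 genes and at 2.86% of all genes (627 genes). A promoter with neither mark in any diet was found at Pax4 and Neurog3 and at 41% of all genes. No promoter of the 5 carried both marks, which 1.75%, 2.84% and 2.39% of all genes did in RD, HFD and HFD-O304.

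In the wider loci the division was the same for H3K27Me3. The loci of Irx1, Irx2 and Hhex held H3K27Me3 in each diet (3 of 5, beside 29.9%, 30.6% and 36.4% of all genes in RD, HFD and HFD-O304). The Pax4 locus alone held H3K27Ac (1 of 5 in each diet, beside 63.4%, 69.5% and 68%), and those peaks lay at the promoters of neighbouring genes. The map of peaks shows all of them at their distance from the start sites.

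**Figure D1:**
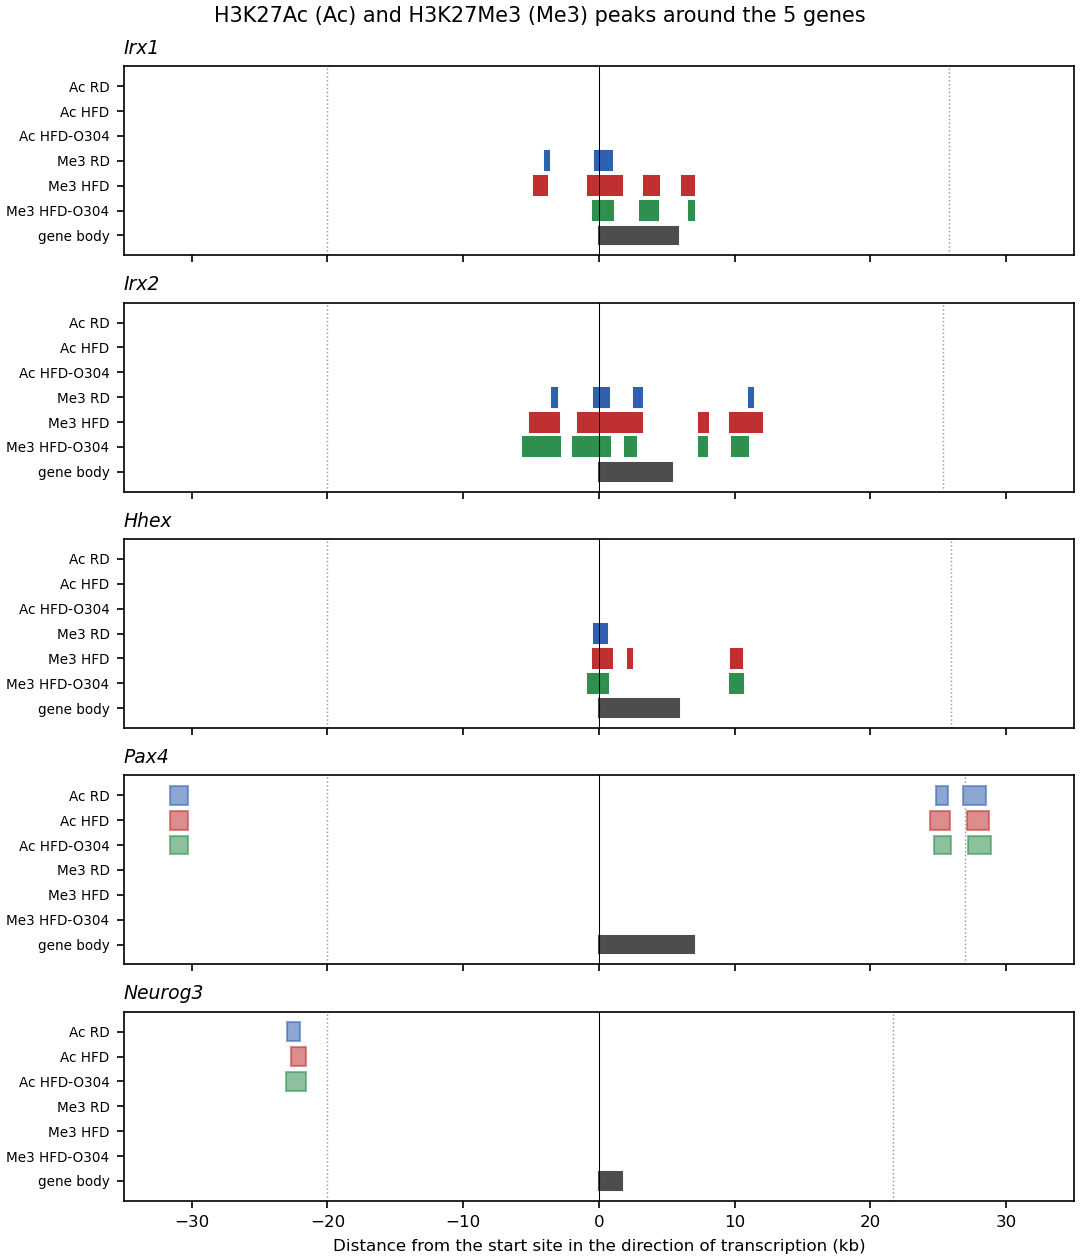
Peaks around Irx1, Irx2, Hhex, Pax4 and Neurog3 by distance from the start site in kb, in the direction of transcription. Each row is 1 mark and diet (blue for RD, red for HFD and green for HFD-O304, with H3K27Ac in paler shades), black bars are gene bodies and dotted lines the ends of the 20-kb flanks. H3K27Me3 sits on the start sites of Irx1, Irx2 and Hhex in each diet, and no peak touches the bodies of Pax4 and Neurog3.

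Peak strength is given below as the mean pileup of a peak over the uniform background of its list, called enrichment. The background is the number of fragments expected at each base if the kept fragments were spread evenly over the effective genome size stated in the file headers. It was 8.77 fragments per base in RD, 6.46 in HFD and 6.74 under HFD-O304 for H3K27Me3, from 74870300, 54166902 and 57324419 kept fragments. The H3K27Ac lists had 83773042, 95218072 and 84694188. The lowest H3K27Me3 enrichment called was 2.74 in RD, 3.10 in HFD and 2.97 under HFD-O304, so that the limit of calling itself was lowest in RD, where the depth was highest. Each enrichment is given with an exact 95% Poisson interval on its estimated fragments, which covers counting error only. With 1 list per group it says nothing of the spread between animals.

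Irx1, the first of the α-cell factors, carried H3K27Me3 over its start site, first exon (5′ UTR and coding sequence) and part of the first intron. The promoter peak lay at chr13:71962760-71964042 in RD (1283 bp), chr13:71961985-71964550 in HFD (2566 bp) and chr13:71962688-71964125 under HFD-O304 (1438 bp). Relative to the start site it reached from −319 to 963 bp in RD, from −827 to 1738 bp in HFD and from −402 to 1035 bp under HFD-O304. The HFD peak was thus 2 times as wide as that of RD, whereas the HFD-O304 peak was 1.12 times as wide. The enrichment was 2.99 in RD (interval 2.54 to 3.51), 3.60 in HFD (3.19 to 4.06) and 3.48 under HFD-O304 (2.94 to 4.07). These values rested on an estimated 154, 268 and 153 fragments, and the intervals of the 3 diets overlapped.

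Around Irx1 the mark also occurred in separate peaks. A peak was called upstream of the start site in RD (−3943 to −3707 bp, enrichment 2.79) and HFD (−4807 to −3789 bp, 3.46) and not in HFD-O304. A peak over exon 2 and the neighbouring intron was called in HFD (1113 bp, 3.50) and HFD-O304 (1327 bp, 3.17) and not in RD. A peak just beyond the 3′ end of the gene was called in the same diets, with 921 bp and 3.89 in HFD and 392 bp and 3.64 in HFD-O304. In all, H3K27Me3 covered 1.52 kb of the 45.8-kb Irx1 locus in RD, 5.62 kb in HFD and 3.16 kb under HFD-O304. With lists of equal size the HFD-O304 value was 1.83 kb and those of RD and HFD were the same.

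Irx2, the other α-cell factor, had the widest promoter peak of the 5 genes in HFD and HFD-O304, and a narrower one than Irx1 in RD. Its promoter peak lay at chr13:72628497-72629588 in RD (1092 bp), chr13:72627318-72631963 in HFD (4646 bp) and chr13:72626930-72629615 under HFD-O304 (2686 bp). The RD and HFD-O304 peaks ended in the first intron, 768 and 795 bp past the start site, and the HFD peak ran on to exon 3, 3143 bp past it. The HFD peak was 4.25 times and the HFD-O304 peak 2.46 times as wide as that of RD. In RD and HFD-O304 a second peak lay within the gene (577 bp with an enrichment of 2.96 and 810 bp with 3.34), over a stretch that the single HFD peak largely covered. At the promoter the enrichment was 2.86 in RD (interval 2.38 to 3.41), 3.67 in HFD (3.35 to 4.01) and 3.46 under HFD-O304 (3.07 to 3.89), from an estimated 125, 494 and 285 fragments. The RD interval overlapped those of the other diets.

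Further H3K27Me3 flanked Irx2 on both sides in each diet. Upstream, a peak of 367 bp in RD (enrichment 2.90) stood beside peaks of 2182 bp in HFD (3.68) and 2666 bp under HFD-O304 (3.37) at the same place. Downstream of the gene, RD had 1 peak of 289 bp (3.02). HFD had peaks of 736 bp (3.48) and 2398 bp (3.49) there, and HFD-O304 of 607 bp (3.07) and 1175 bp (3.29). The covered length of the 45.4-kb Irx2 locus was 2.33 kb in RD, 9.96 kb in HFD and 7.94 kb under HFD-O304, or 5.12%, 22.0% and 17.5% of it.

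Hhex, the δ-cell factor, carried a compact H3K27Me3 peak over the start site, exon 1 and part of the first intron. The peak lay at chr19:37434452-37435381 in RD (930 bp), chr19:37434412-37435757 in HFD (1346 bp) and chr19:37434018-37435507 under HFD-O304 (1490 bp). The HFD peak was 1.45 times and the HFD-O304 peak 1.60 times as wide as that of RD. The enrichment was 3.04 in RD (interval 2.50 to 3.65), 4.22 in HFD (3.59 to 4.90) and 3.49 under HFD-O304 (2.96 to 4.07). The estimated fragments were 113, 164 and 159. The HFD value was the highest of the promoter peaks of the 5 genes, and its interval overlapped those of the other diets. It was also the only one of these 9 promoter peaks whose −log10 q reached 5 (6.21). Within the gene, a peak of 298 bp over exon 2 was called in HFD alone (3.65).

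A second H3K27Me3 region beyond the 3′ end of Hhex was called in HFD and HFD-O304 and not in RD, and it is unlike the promoter. It lay at chr19:37444550-37445353 in HFD (804 bp, enrichment 3.61) and chr19:37444461-37445463 under HFD-O304 (1003 bp, 4.38). Repeat-masked bases made up 86.3% of the HFD peak and 83.0% of the HFD-O304 peak, and the ratio of observed to expected CG dinucleotides was 0.118 in the HFD peak, beside 0.884 in the HFD promoter peak. The central 300 bases, chr19:37444802-37445101 on the plus strand of GRCm38, are shown for this contrast, again with CG in capitals. They hold 3 CG dinucleotides and end in a run of a short repeated unit.
Hhex downstream region: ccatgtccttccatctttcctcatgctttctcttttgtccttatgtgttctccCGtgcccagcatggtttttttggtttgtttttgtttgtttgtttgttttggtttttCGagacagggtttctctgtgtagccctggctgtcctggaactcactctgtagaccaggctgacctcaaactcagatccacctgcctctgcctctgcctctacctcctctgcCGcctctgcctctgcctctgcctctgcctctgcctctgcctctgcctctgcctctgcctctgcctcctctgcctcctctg
When peaks with 50% or more of their bases repeat-masked were removed, a limit chosen after seeing the data, this region was lost and the promoter peaks of Irx1, Irx2 and Hhex were kept. How far reads that map to repeats contributed to it was not tested.

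**Figure D2:**
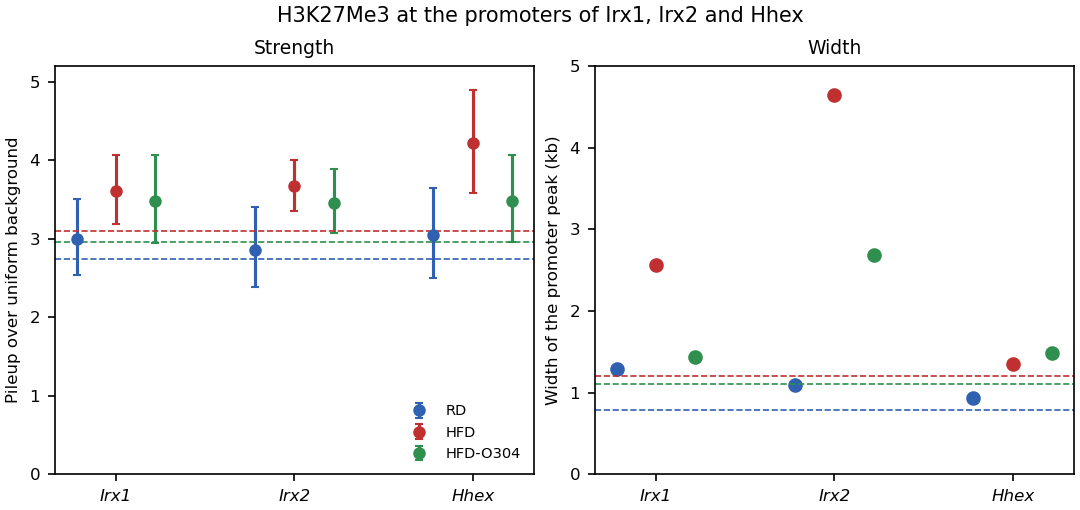
Enrichment (pileup over uniform background, left) and width in kb (right) of the H3K27Me3 promoter peak of Irx1, Irx2 and Hhex by diet (blue for RD, red for HFD and green for HFD-O304). Bars are exact 95% Poisson intervals for counting error, and dashed lines are the lowest enrichment called in each list (left) and the median width over all genes with a promoter peak (right). The RD value is the lowest of the 3 diets at each gene in enrichment and in width, and the RD enrichments lie under the lowest value called in HFD.

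In RD all 3 promoter peaks were the narrowest and weakest of the diets. At most genes with the mark the RD peak was likewise narrower, and weaker, than in either other diet. Of the 1128 genes with H3K27Me3 at the promoter in all diets (5.14% of all genes, and 3 of the 5, while 11% of all genes had it in at least 1 diet), the peak was wider in HFD than in RD at 79.4% and at 3 of 3 here. The enrichment was higher in HFD at 96.3% of these genes and at 3 of 3 here. That 3 of 3 was fixed by the limits of calling. The RD values (2.99, 2.86 and 3.04) lay under 3.10, the lowest called in HFD, so any called HFD peak was higher. In HFD-O304 the peak was wider than in RD at 80.1% and the enrichment higher at 93%, again with 3 of 3 for both. The higher enrichment at Irx2 was fixed in the same way, with 2.86 in RD and 2.97 the lowest called in HFD-O304. The RD list served in both comparisons. The direction at Irx1, Irx2 and Hhex was thus that of the background. The depth, the limit of calling and the share of duplicates (45.7% to 56.9% of H3K27Me3 fragments) moved with diet as well, and their part in the widening was not tested.

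The RD calls of Irx1, Irx2 and Hhex were close to the limit. Their enrichments (2.99, 2.86 and 3.04) were all under 3.10, the lowest called in HFD, as were those of 49.9% of the 1128 genes. Were 3.10 required in every diet, none of the 3 promoters would be called in RD and all 3 would be called in HFD and HFD-O304. The RD peak lay wholly inside both the HFD and the HFD-O304 peak at all 3 genes, beside 37.9% of the 1128. The start sites thus lay under a called peak in each diet at the limit of its own list. How far the called stretch extended around them differed between lists whose limits and depths differed too.

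The size of the widening varied among the 3 genes. The median ratio of HFD to RD width over the 1128 genes was 1.54 (quartiles 1.04 to 2.64). Irx2 at 4.25 lay above the upper quartile, while Irx1 at 2 and Hhex at 1.45 lay between the quartiles. The Irx2 ratio took the RD promoter peak alone. A separate RD peak of 577 bp lay largely within the stretch of the single HFD peak. The promoter peak was at least 1.5 times as wide in HFD as in RD at Irx1 and Irx2 (2 of 3, beside 52.2%). Counted over the whole locus, the ratio of HFD to RD covered bases was 3.70 at Irx1, 4.28 at Irx2 and 2.63 at Hhex, beside an upper quartile of 2.41 over the 1128 genes (median 1.58). The Hhex ratio rested on the repeat-rich downstream region, without which the locus held 1.64 kb in HFD and 0.93 kb in RD, a ratio under that quartile. The covered bases were higher in HFD than in RD at 81% of these genes and higher in HFD-O304 than in RD at 85.3%, with 3 of 3 here in both.

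From HFD to HFD-O304 the promoter peak was narrower at Irx1 and Irx2 and slightly wider at Hhex, and the enrichment was lower at all 3 genes. The promoter peak in HFD-O304 was 0.560 times as wide as in HFD at Irx1 and 0.578 times at Irx2, both under the lower quartile of 0.759 over the 1128 genes (median 0.999). At Hhex it was 1.11 times as wide, which is between the quartiles (upper quartile 1.27). At Irx2 a separate HFD-O304 peak of 810 bp lay within the stretch of the single HFD peak, and the promoter width leaves it out. The ratio of HFD-O304 to HFD covered bases over the locus was 0.797 at Irx2 and 0.562 at Irx1. A peak wider in HFD-O304 than in HFD was found at 48.5% of the genes and at 1 of 3 here (Hhex). A peak that was narrowest in RD and widest in HFD was found at 37.1% and at 2 of 3 here (Irx1 and Irx2). The enrichment was higher in HFD-O304 than in HFD at 33.5% of the genes and at 0 of 3 here. The covered bases of the locus were higher in HFD-O304 at 55.8% and at 1 of 3 (Hhex, with 2.45 kb in HFD and 2.49 kb in HFD-O304). This direction at Hhex turned without repeat-rich peaks (1.64 kb in HFD and 1.49 kb in HFD-O304) and within the gene body alone (1.25 and 0.698 kb). With merged replicates, none of these differences can be set against the spread between mice.

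Within each list the 3 promoter peaks were of more than median width, while their rank in enrichment varied between diets. Irx2 stood at width percentiles 66.8, 91.7 and 82.9 in RD, HFD and HFD-O304 among all genes with a promoter peak (medians 788, 1206 and 1106 bp). Irx1 stood at 73.6, 79.6 and 61.1, and Hhex at 58.2, 54.7 and 62.8. In enrichment Irx1 lay near the middle of each list, at percentiles 40.3, 49.5 and 52.3. Irx2 went from percentile 16.2 in RD to 56.5 in HFD and 50.8 under HFD-O304. Hhex went from percentile 48.9 in RD to 87.7 in HFD and 53.9 under HFD-O304. A −log10 q of at least 5 in 1 diet or more was reached by 54% of the 1128 genes and by 1 of 3 here (Hhex).

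**Figure D3:**
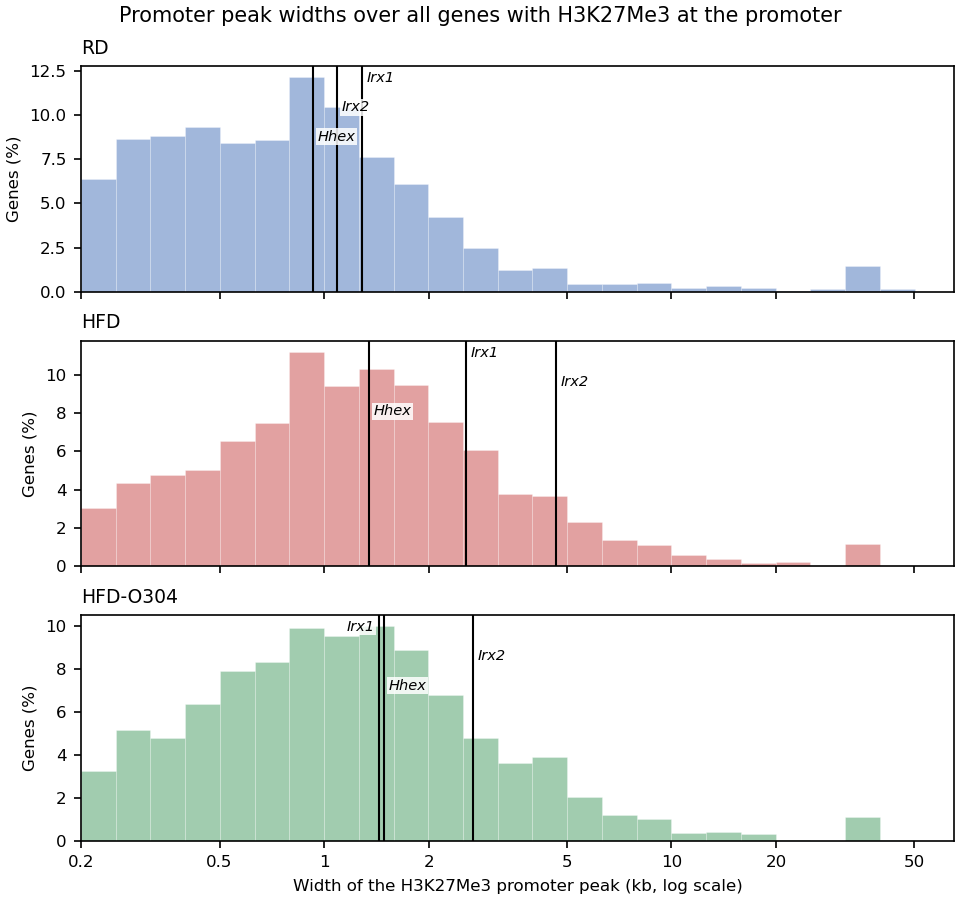
Widths of the H3K27Me3 promoter peak in kb on a log axis, as the percentage of all genes with such a peak in RD, HFD and HFD-O304. Vertical lines are Irx1, Irx2 and Hhex. All 3 lie above the median in each diet, and Irx2 moves from 1.092 kb in RD to 4.646 kb in HFD.

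The progenitor factor Pax4 had no peak of either mark at its promoter or in its body in any diet. Its locus touched an H3K27Ac peak that lay downstream at the adjoining promoters of Gcc1 and Arf5, with an enrichment of 4.64 in RD (878 bp), 5.17 in HFD (1488 bp) and 4.01 under HFD-O304 (1208 bp). These peaks started 24.9, 24.4 and 24.7 kb from the Pax4 start site. A further H3K27Ac peak of Gcc1 reached into the locus only in RD, and in HFD and HFD-O304 it ended just outside. Upstream, the promoter of Snd1 carried H3K27Ac in each diet (3.39, 3.34 and 3.72), with the near edge of the peaks at −30.3 kb from the Pax4 start site. No H3K27Ac peak was left in the Pax4 locus when peaks at the promoters of other genes were set aside. The nearest H3K27Me3 was 202 kb away in RD, and 50.4 and 50.7 kb away in HFD and HFD-O304, at the promoter of Zfp800.

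Neurog3, the factor of endocrine commitment, had no peak of either mark in its whole locus. The nearest H3K27Ac lay 22.0 kb upstream in RD and 21.6 kb upstream in both HFD and HFD-O304, at a start site of Fam241b, with enrichments of 4.26, 3.92 and 3.68. In HFD-O304 a weak H3K27Ac peak was also called 40.1 kb downstream of the start site (1188 bp, 2.46). The nearest H3K27Me3 was 153, 175 and 154 kb away in RD, HFD and HFD-O304. For Pax4 and Neurog3 the lists thus hold no value at the gene, and the level under the limit of calling (2.74 to 3.10 for H3K27Me3) is not known.

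H3K27Ac lay farther still from Irx1, Irx2 and Hhex. The nearest H3K27Ac peak to the Irx1 start site was 82.3 kb away in RD, 82.4 kb in HFD and 82.3 kb under HFD-O304. At Hhex it was 116 kb away in each diet, with enrichments of 2.90, 3.68 and 3.26. At Irx2 it was 699 kb away in RD, 236 kb in HFD and 180 kb under HFD-O304, and the HFD and HFD-O304 peaks were weak (2.37 and 2.41, beside the lowest values called of 2.26 and 2.37).

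The promoters of Irx1, Irx2 and Hhex share a feature that did not enter their choice, a high density of CG dinucleotides. Within 1 kb of the start site the ratio of observed to expected CG was 0.756 at Irx1, 0.784 at Irx2 and 0.829 at Hhex, at percentiles 87.6, 90.4 and 94.1 of all protein-coding genes (median 0.474). Neurog3 had 0.517, at percentile 55.0, and Pax4 had 0.107, at percentile 7.90. The median was 0.596 over the 627 genes with H3K27Me3 in all diets and H3K27Ac in none, and 47.4% of those promoters were CpG-rich (a ratio of at least 0.6 and at least 50% GC). Over the 8991 genes with neither mark in any diet the median was 0.185 and 1.37% were CpG-rich. Over the 8913 genes with H3K27Ac in all diets and H3K27Me3 in none the median was 0.657 and 57.6% were CpG-rich, so that CG density alone did not separate the marks. Irx1, Irx2 and Hhex were more CG-dense than the median of each class, Pax4 less than that of each, and Neurog3 lay above the median of genes with neither mark and under the medians of the other classes.

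**Figure D4:**
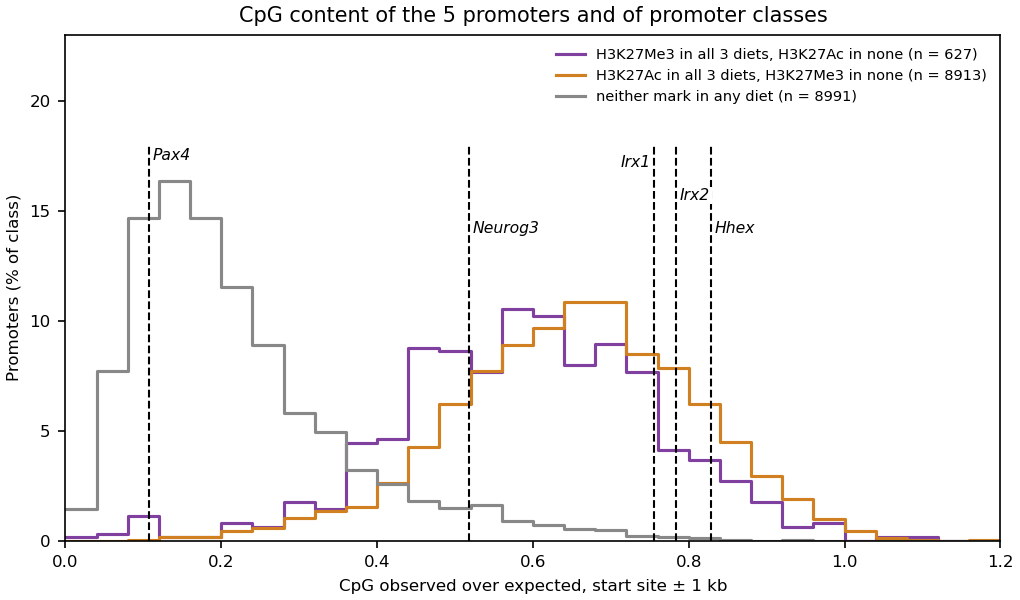
Ratio of observed to expected CG dinucleotides within 1 kb of the start site, as the percentage of promoters in each of 3 classes by mark. Dashed lines are the 5 genes. Irx1, Irx2 and Hhex lie between 0.756 and 0.829. Neurog3 lies at 0.517, above the upper quartile of the promoters with neither mark (0.278). Pax4 lies at 0.107, a little under the lower quartile of that class (0.123).

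The other Iroquois genes had promoters like those of Irx1 and Irx2. H3K27Me3 was called at 3 of 4 (Irx3, Irx5 and Irx6) in RD and at 4 of 4 in HFD and HFD-O304, where Irx4 was added. The shares of all genes were 6.63%, 8.46% and 8.88% in RD, HFD and HFD-O304. The enrichment was 3.19, 3.80 and 3.63 at Irx3 in RD, HFD and HFD-O304, and the width 2528, 9507 and 10648 bp. At Irx5 it was 3.12, 3.90 and 3.62 with widths of 4420, 6008 and 6477 bp. Irx6 had 3.06, 3.34 and 3.73 with widths of 404, 930 and 3233 bp, and Irx4 had 3.53 in HFD and 3.39 in HFD-O304. H3K27Ac was called at 1 of the 4, Irx5, in HFD-O304 alone (2.47), beside its H3K27Me3. The narrowing from HFD to HFD-O304 at Irx1 and Irx2 was also present at Irx4 (6201 and 4509 bp), while Irx3, Irx5 and Irx6 were wider in HFD-O304. Irx1, Irx2 and Irx4 are the neighbours on chromosome 13, and Irx3, Irx5 and Irx6 those on chromosome 8.

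Of 14 other factors of the α-cell, δ-cell, PP-cell and progenitor, a list chosen for known roles, more had H3K27Ac than H3K27Me3 at the promoter. The same held over all genes. H3K27Ac was called at 6 in RD, 8 in HFD and 9 under HFD-O304, beside 44.1%, 49.9% and 49.4% of all genes. H3K27Me3 was called at 3, 5 and 6 of the 14, beside 6.63%, 8.46% and 8.88%. H3K27Me3 without H3K27Ac in every diet, the state of Irx1, Irx2 and Hhex, was found at 2 of the 14, Onecut1 and Sox9. The share of all genes was 2.86%. Neither mark in any diet, the state of Pax4 and Neurog3, was found at 1 of the 14, the α-cell factor Pou3f4. Of all genes 41% had neither. Gata6, an early pancreatic factor, carried H3K27Me3 in each diet (3.09, 3.91 and 3.23) and H3K27Ac in HFD and HFD-O304 (2.72 and 2.77). Fev, a factor of the endocrine progenitor, had H3K27Me3 in HFD and HFD-O304 (3.44 and 3.23) and H3K27Ac in HFD-O304 (2.59).

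In the same list the remaining differences between diets were peaks near the limit of calling. H3K27Ac was added in HFD and HFD-O304 at Myt1, a factor of endocrine differentiation (2.31 and 2.54). H3K27Me3 was added in HFD and HFD-O304 at Gata4 (3.16 and 3.13) and in HFD-O304 at Ptf1a, a factor of the acinar lineage and of early progenitors (3.14). The β-cell and pan-endocrine factors stood at the other end. H3K27Ac was called at 9 of 10 of them in RD and 10 of 10 in HFD and HFD-O304, where Neurod1 was added (2.73 and 2.91). Of all genes, 44.1%, 49.9% and 49.4% had it in RD, HFD and HFD-O304. H3K27Me3 was called at none of the 10 in RD and HFD and at Nkx6-1 in HFD-O304 (3.02, 282 bp), which carried H3K27Ac in each diet.

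**Figure D5:**
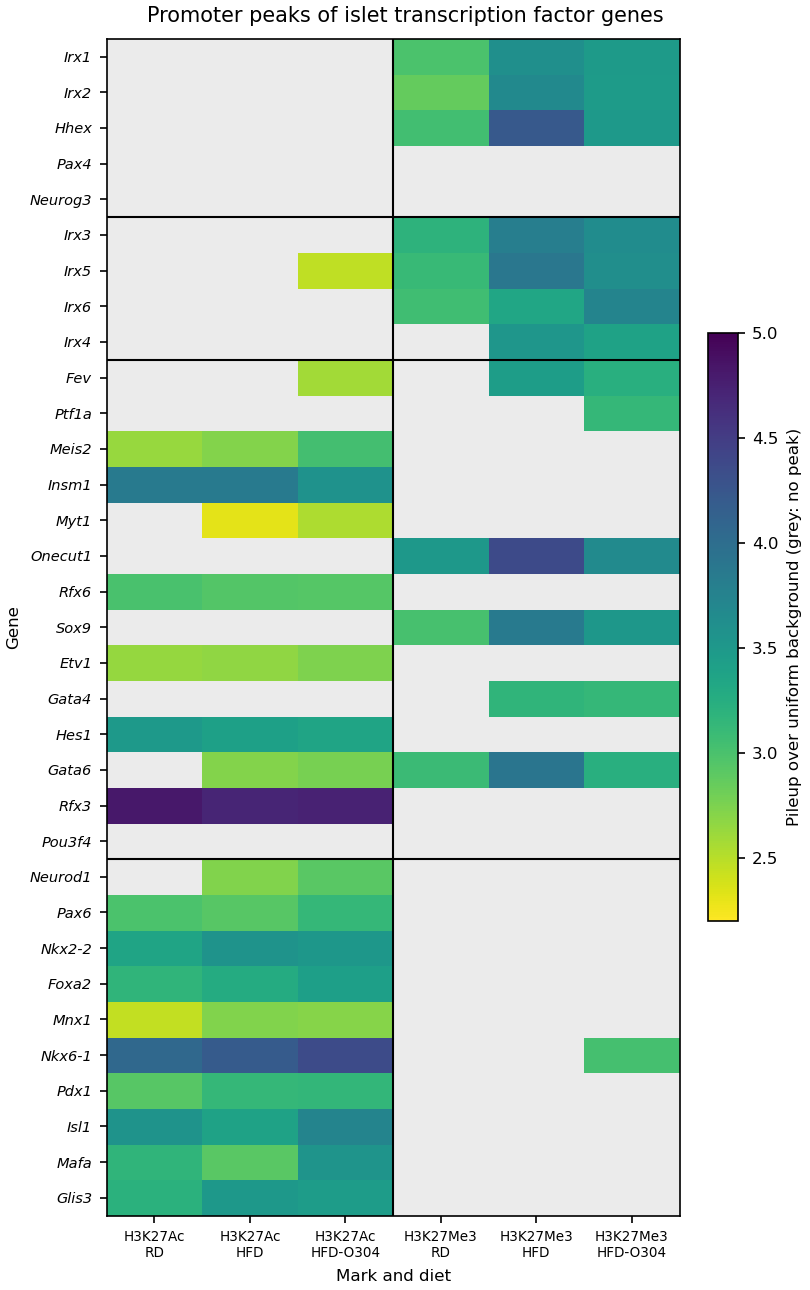
Enrichment (pileup over uniform background, colour) of the promoter peak of each factor (rows) by mark and diet (columns), with grey where no peak was called. Lines separate the 5 genes described here, the 4 other Iroquois genes, 14 other α-cell, δ-cell, PP-cell and progenitor factors, and 10 β-cell and pan-endocrine factors. Irx1, Irx2 and Hhex are coloured in the H3K27Me3 columns alone, Pax4 and Neurog3 are grey throughout, and the lowest block is coloured almost wholly in the H3K27Ac columns.

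Marker genes set a limit on what an absent H3K27Ac peak shows at an α-cell or δ-cell gene. Among 8 islet endocrine markers H3K27Ac was called at the promoter of 2 in RD and HFD (Chga and Ins1) and 1 in HFD-O304 (Chga). The shares of all genes were 44.1%, 49.9% and 49.4% in RD, HFD and HFD-O304. In the locus it was called at 6, 6 and 5 of the 8, beside 63.4%, 69.5% and 68% of all genes. The promoters of Gcg and Sst, the hormone genes of the α-cell and δ-cell, had no peak of either mark, nor had those of Ins2, Iapp, Ppy and Pyy. For Ins2 the 5′ end of the gene record lies away from its usual start site. H3K27Me3 was called at the promoter of none of the 8. No promoter peak of either mark was called at the 4 acinar, 2 duct or 2 immune markers. Of the endothelial and mesenchymal markers, Kdr carried H3K27Me3 in each diet (3.28, 3.81 and 3.78) and Col1a1 in HFD-O304 (3.75), and H3K27Ac was called at none.

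Genes whose promoters most resembled those of Irx1, Irx2 and Hhex over the 6 lists were found by the distance between their log2 enrichments, with a missing peak set to the lowest value called. Nearest to Irx1 were Foxc2, a forkhead factor (distance 0.016), Fst, the activin antagonist follistatin (0.018), and Lrrtm3, a synaptic adhesion protein (0.023). Nearest to Irx2 were Igfbp2, an IGF-binding protein (0.015), the potassium channel gene Kcnj10 (0.042) and the transporter gene Slc47a2 (0.050). Nearest to Hhex were Dpys, an enzyme of pyrimidine breakdown (0.029), Kank4 (0.040) and the cyclin gene Ccna1 (0.056). None of these genes had an H3K27Ac promoter peak in any diet. The likeness thus rests on the H3K27Me3 value of each diet and no more.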

How the data were processed

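ChIP-seq of H3K27Ac and H3K27Me3 was analysed from 6 deposited peak lists, 1 per mark and diet. The authors aligned paired-end reads to GRCm38 by bowtie2, combined both replicates of a group, and used MACS 2.1.2 for broad peak calling, without a control and without a local background. Per the file headers the q cutoff was 0.01 and 1 fragment was kept per position. The inputs were not used here. For each peak the deposited files give the mean pileup, which is a coverage signal in fragments per base, the −log10 p and −log10 q, and a fold enrichment, which is a ratio of pileup plus 1 to background plus 1.

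The pileup was divided by kept fragments times fragment size over the effective genome size of the headers. This limits comparison between lists near the limit of calling, which was highest in the shallowest list. Genes came from GENCODE M21 and sequence from the GRCm38.p6 reference of C57BL/6J, whereas the mice were CBA. A peak was counted at a gene when it overlapped by at least 1 base. Exact Poisson intervals (scipy 1.17.1) used pileup times length over fragment size, and cover counting error only. The overlap step was tested on simulated data. The 5 genes, the lists and the rules for named genes were chosen with earlier results of these data known. The named genes were the 5 genes, all Iroquois genes, listed factors that differed between diets or carried both marks, genes whose promoters were under peaks of a locus, and the 3 nearest by distance. Onecut1, Sox9 and Pou3f4 were named outside these rules, because their state was that of genes among the 5. Marker genes were named as well. Alternatives were no flank, 50-kb flanks, promoters of 500 and 2500 bp, any annotated start site, a −log10 q of at least 5, lists of equal size, a common pileup limit, and removal of peaks at promoters of other genes or in repeats. Some members of the list of other factors are not reported here.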

Additional observations from a re-analysis of the deposited data

How the results depend on the processing

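No paired analysis was possible because each list pools both replicates of its group, nor could either replicate be dropped. Counts of genes among the 5 were recomputed under 10 alternatives. At a −log10 q minimum of 5, the genes with H3K27Me3 at the promoter fell from 3 to 0 in RD, 1 in HFD (Hhex) and 0 in HFD-O304, and those with H3K27Me3 in the locus to 0 in RD and 1 in HFD-O304. The latter was Hhex, through its repeat-rich downstream region (7.52) and not its promoter peak (3.99). In HFD the locus count fell from 3 to 2, which is within 1.5 times and is among the 68 counts below. With a common lowest enrichment of 3.10, the genes with H3K27Me3 in RD fell to 0 at the promoter and 0 in the locus. The genes with H3K27Ac in the locus, 1 in each diet, became 0 in each diet with no flank, 2 in each with 50-kb flanks (Pax4 and Neurog3) and 0 in each without peaks at promoters of other genes. The other 68 recomputed counts were within 1.5 times of those given, among them all under lists of equal size, any annotated start site, promoters of 500 or 2500 bp and removal of repeat-rich peaks, the last chosen after seeing the data. Of the lengths covered in the loci, 36 recomputed values moved by over 1.5 times: 11 with no flank, 9 at the −log10 q minimum, 8 with 50-kb flanks, 3 with the common lowest enrichment, 3 without peaks at promoters of other genes, 1 with lists of equal size (Irx1 in HFD-O304, from 3.16 to 1.83 kb) and 1 without repeat-rich peaks (Hhex in HFD-O304, from 2.49 to 1.49 kb). Depth limits what an absent peak shows, since a gene under the limit of calling has no value in these lists.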

Other observations

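The 6 Iroquois genes lie in 2 clusters, which were taken with 20 kb on either side. The cluster on chromosome 13 (chr13:71937921-73289608), with Irx1, Irx2 and Irx4, held 13 H3K27Me3 peaks in RD, 16 in HFD and 16 under HFD-O304, covering 7.54, 29.0 and 24.1 kb. That was 0.558%, 2.15% and 1.78% of the cluster, beside 0.506%, 0.571% and 0.792% of the chromosomes as a whole. The cluster on chromosome 8 (chr8:91778525-92700956), with Irx3, Irx5 and Irx6, held 11, 15 and 15 peaks covering 12.7, 29.5 and 32.6 kb, or 1.38%, 3.19% and 3.54%. H3K27Ac covered 0, 1.49 and 1.06 kb of the first cluster in RD, HFD and HFD-O304, and was called in the second in HFD-O304 alone (0.713 kb). The covered length of H3K27Me3 was lowest in RD in both clusters, and between HFD and HFD-O304 it was lower in HFD-O304 in the first and higher in the second. The lists were called separately at different depths, the part of which in these lengths was not tested.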
